A study of Homo sapiens with 12 samples.

Results

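The response of RNF113A-depleted A549 cells to Cisplatin was read from 6 of the 12 RNA sequencing libraries of the series, the 3 labelled shRNF113A untreated and the 3 labelled shRNF113A + cisplatin. They were chosen by their labels alone, and all genes, splicing events and intronic reads measured in them were considered. A549 is an established human lung adenocarcinoma line. Every culture had been infected with a lentivirus that carried the shRNA and had been selected for 4 days on puromycin at 1 µg/ml, so the untreated cells were depleted and selected as well. Treated cells then received Cisplatin at 25 µg/ml for 20 h according to the labels, whereas the study's legends for other experiments state its doses in µM. The other 6 libraries came from cells with a control shRNA, 3 untreated and 3 treated in the same way, and they were used here to ask where depleted cells responded otherwise and, in the tests of expression, for a common estimate of the spread. The study calls the libraries of a condition biological replicates. The labels do not say whether each came from its own infection, so p-values measure the spread between these cultures.

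Cisplatin binds to purines and crosslinks neighbouring bases or opposite strands of the DNA, which blocks replication forks and elongating RNA polymerases. The lesions are removed by nucleotide excision repair and, at crosslinks between strands, by Fanconi and recombination factors. Checkpoint kinases meanwhile stabilize p53, a transcription factor that induces genes of cell cycle arrest, repair and apoptosis. RNF113A is a RING finger protein of the activated spliceosome, the machine that removes introns from pre-mRNAs.

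Counts on the strand of a gene summed to 26220526 to 45721152 read pairs in a library, and the 3 treated depleted libraries were the smallest, with 26220526 to 30806147. Expression levels are given as CPM, the counts scaled to a common library size with TMM factors. RNF113A, on chromosome X of hg19 from 119004497 to 119005791, was at 15.3, 15.8 and 16.8 CPM in the untreated depleted libraries and at 25.8, 24.3 and 29.9 CPM in the treated ones. The untreated depleted libraries lay below all 3 untreated control libraries, which held 19.5 to 20.3 CPM, at means of 16.0 and 19.9 CPM. The treated depleted libraries overlapped the treated control ones, which held 27.7 to 31.5 CPM, so the mRNA of RNF113A did not separate the cells after treatment. The log2 fold change of RNF113A upon Cisplatin treatment was 0.74 in depleted cells (SE 0.09, adjusted p = 2.29e-05), under the 2-fold limit set for a call. Of 11 markers of the epithelial line, the keratins KRT8 and KRT18 were abundant, with 53872 to 283774 reads in depleted libraries. KRT19 and MUC1 held only 44 to 173 and 189 to 312 reads in these libraries. CDKN2A and CDKN2B, which are deleted in A549, had 0 reads in all 12 libraries. MTAP, the neighbour of these genes that is also listed as deleted, had 181 to 627 reads. Among 12 markers of leukocytes, fibroblasts and endothelium, PTPRC, CD3E, COL1A2 and DCN had at most 1 read in any depleted library, VWF and KDR at most 3, PECAM1 at most 12 and CDH5 at most 18. CD14 held 37 to 130 reads there, COL1A1 108 to 214 and LUM 23 to 89. The summed level of the 12 markers was 52.8 to 56.2 CPM in untreated and 69.0 to 86.7 CPM in treated depleted cells, of which CD68, a lysosomal protein that is not restricted to leukocytes, held 43.3 to 45.7 and 56.8 to 74.0 CPM. The part of these markers in the results was not tested. Across 9779 genes the depleted libraries of a condition correlated with r of 0.990 to 0.997, a value across genes, which are not independent replicates. The control libraries numbered 2 stood apart from the others of their condition (r of 0.963 to 0.971), which touches the comparisons with control cells and, through the common estimate of the spread, the tests in depleted cells.

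Cisplatin treatment of depleted cells moved a large part of the transcriptome in both directions. Of 15352 genes that passed the filter on low counts, 3547 (23.1%) were called, that is, changed at least 2-fold at an adjusted p under 0.05 in edgeR's quasi-likelihood test with Benjamini-Hochberg adjustment. Of these, 1788 were higher (11.6%) and 1759 lower (11.5%), and the median log2 fold change of all genes was 0.06. The even balance depended on the scaling and the fit, with 2071 higher and 1577 lower when library size replaced TMM and 1556 higher and 1817 lower when the 6 depleted libraries were fitted alone. Without both control libraries numbered 2 there were 3762 calls. Counts of called list members given below are to be read beside the 11.6% higher and 11.5% lower of all genes. The adjusted p alone passed in 9242 genes (60.2%), of which 4974 (32.4%) were higher and 4268 (27.8%) lower, and the 3 treated libraries did not overlap the 3 untreated ones in 11397 (74.2%). In control cells 3037 genes were called (19.8%). There were 2315 genes called in the same direction in both, 65.3% of those called in depleted cells and 76.2% of those called in control cells, while 6 were called in opposite directions. These libraries come from bulk cultures, in which fewer cells of a kind and less RNA per cell cannot be told apart.

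Among the 10 largest rises were targets of p53 and genes of secreted or surface proteins. BTG2, an antiproliferative gene induced by p53 (chromosome 1, 203274619 to 203278730), went from 17.5, 17.9 and 18.1 CPM to 236, 225 and 243 CPM, a log2 fold change of 3.72 (SE 0.15, adjusted p = 4.18e-09). TP53INP1, another p53 target that promotes apoptosis and autophagy, rose from 8.64 to 10.4 CPM to 114 to 136 CPM (log2 fold change 3.70, SE 0.13). PGF, a growth factor of the VEGF family, was at 0.74, 1.13 and 0.86 CPM untreated and reached 29.7, 27.7 and 33.6 CPM (5.05, SE 0.32). PLXNB3, a receptor of semaphorins, rose from 1.54, 2.55 and 1.48 CPM to 86.0, 79.7 and 101 CPM, a log2 fold change of 5.57 (SE 0.25). In each of these genes every treated library lay far above every untreated one, where an absence of overlap was a condition for their choice. SLC52A1, a riboflavin transporter, had the largest rise among those of the 10 with a known product, from 0.47 to 0.64 CPM to 32.2 to 34.0 CPM (5.85, SE 0.24). HES2, a transcriptional repressor of the HES family, rose by 4.19 on the log2 scale, and PVRL4, the adhesion molecule nectin-4, by 5.25. The uncharacterized locus LOC101928841 was listed at 0.06 to 0.13 CPM untreated and 17.1 to 27.5 CPM treated, and KIAA1462 and FAM212B completed the 10.

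The 10 largest falls, ranked under the same limits, were all genes of extreme length. TTC28, a tetratricopeptide repeat protein that spans 702 kb on chromosome 22 (28374004 to 29075853), went from 26.8, 25.4 and 20.4 CPM to 0.74, 0.77 and 0.56 CPM, a log2 fold change of −5.11 (SE 0.21, adjusted p = 4.66e-09). EXOC4, a subunit of the exocyst that tethers secretory vesicles (814 kb), fell from 79.7, 74.6 and 83.8 CPM to 4.01, 2.87 and 5.24 CPM (−4.30, SE 0.24). GMDS, the enzyme that begins GDP-fucose synthesis (622 kb), fell from 31.0, 33.5 and 31.1 CPM to 1.23, 1.76 and 1.87 CPM (−4.30, SE 0.19). In these 3 genes every treated library lay far below every untreated one, again with an absence of overlap as a condition for their choice. The netrin receptor UNC5D, the kinase CAMK1D, the receptor phosphatase PTPRG, the actin-binding proteins TLN2 and NEBL, the synaptic scaffold SHANK2 and the zinc transporter SLC39A11 had log2 fold changes of −5.09 to −4.17. All 10 spanned at least 394 kb.

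**Figure D1:**
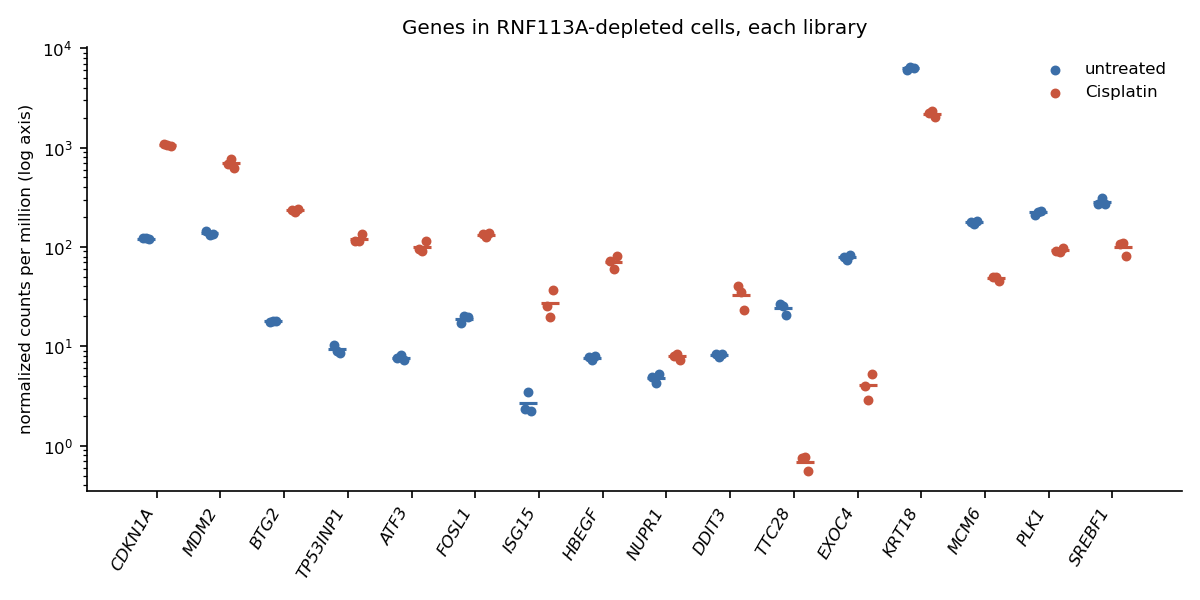
Level of 16 genes in each depleted library, as CPM on a log axis, with the mean of each group as a short bar; blue points are the 3 untreated and orange points the 3 Cisplatin-treated libraries. CDKN1A, BTG2 and the other genes on the left rose, NUPR1 shifted little from 4.31 to 5.26 CPM to 7.26 to 8.38 CPM, and TTC28 and EXOC4 fell to at most 0.77 and 5.24 CPM.

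The p53 program rose as a whole. Of 36 listed targets 35 were tested, and 34 of these rose. The median change on the log2 scale was 1.96 for the list and 0.06 for all genes (2.34 in control cells, where 34 also rose). Among the genes of arrest, CDKN1A, the inhibitor of cyclin-dependent kinases, went from 122, 123 and 119 CPM to 1078, 1062 and 1038 CPM (log2 fold change 3.13, SE 0.17, adjusted p = 2.44e-08), and GADD45A, PLK3 and SFN rose by 2.83, 2.57 and 2.13. Among the feedback genes, MDM2, the ubiquitin ligase that degrades p53, went from 144, 133 and 134 CPM to 688, 773 and 618 CPM (2.34, SE 0.10), and the phosphatase PPM1D rose by 1.89. The 4 repair targets rose by 1.47 to 2.11, with the translesion polymerase POLH highest. Of the death genes, BBC3, which encodes PUMA, went from 8.36, 9.82 and 8.55 CPM to 61.7, 64.7 and 71.7 CPM (2.89, SE 0.16) and PMAIP1, which encodes NOXA, from 22.5 to 23.3 CPM to 110 to 151 CPM (2.45). The stress and metabolic targets SESN1, SESN2, FDXR and GDF15 rose by 2.69, 2.72, 2.95 and 1.84. PERP was the single tested target that did not pass.

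Death receptors rose while most adaptors and caspases moved less than 2-fold. Of 23 genes in this group 8 rose and 0 fell by the limit, and the median change on the log2 scale was 0.83. FAS, which stands in the p53 list as well, was at 19, 18.3 and 19.6 CPM untreated and at 125, 136 and 134 CPM treated (2.79, SE 0.10). The TRAIL receptors TNFRSF10A and TNFRSF10B rose by 1.83 and 1.19. TNFRSF10D, a decoy receptor for TRAIL, rose from 39.4 to 49.2 CPM to 204 to 327 CPM (2.52, SE 0.18). APAF1, the core of the apoptosome, CASP10 and the caspase inhibitor BIRC3 rose by 1.13, 1.34 and 1.71. CASP8 passed by p but not by size (0.81). In the BCL2 family 7 of 18 members rose (38.9%, against 11.6% of all genes) and 2 fell (11.1%, against 11.5%). Those that rose include BBC3 and BAX, which stand in the p53 list as well. The effectors BAX and BAK1 rose by 1.17 and 1.56, and the BH3-only genes BIK and BCL2L11 (BIM) by 1.83 and 1.20. The BH3-only gene HRK fell by 1.30 (SE 0.34), from 0.65 to 1.00 CPM to 0.19 to 0.53 CPM. Pro-survival BCL2, which spans 197 kb, fell by 1.19, from 4.38 to 5.35 CPM to 2.04 to 2.41 CPM, whereas BCL2A1 rose from 0.09 to 0.13 CPM to 1.94, 2.04 and 2.99 CPM. MCL1, whose product the study follows as a survival protein, was at 233, 228 and 227 CPM untreated and 394, 417 and 406 CPM treated (0.82, adjusted p = 1.92e-06).

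Genes that respond to growth factor and stress kinases formed the next rising group. Of 24 AP-1 and immediate early genes 9 rose and 0 fell (median 0.80), and of 15 genes of MAPK feedback 8 rose and 0 fell (median 1.10). Within AP-1, ATF3 went from 7.62, 8.19 and 7.26 CPM to 94.4, 91.0 and 114 CPM (3.70, SE 0.29), and FOSL1, JUN, MAFF and FOSB rose by 2.81, 2.69, 2.47 and 1.98, of which the call of FOSB was lost without untreated library 2 (1.71), without treated library 1 (1.86) or 3 (1.89) and with DESeq2. EGR2 and EGR3 rose by 4.07 and 2.42, while EGR1 varied among the untreated libraries (17.5, 7.85 and 10.3 CPM against 26.0, 24.1 and 21.7 CPM treated) and did not pass (1.01, SE 0.85, adjusted p = 0.325). The phosphatases DUSP14 and DUSP5 and the Ras antagonists SPRY1 and SPRED3 rose by 1.88, 1.30, 1.76 and 1.65. Of 15 genes of the EGFR family only the ligand HBEGF rose, from 7.73, 7.35 and 7.90 CPM to 72.5, 60.2 and 81.1 CPM (3.22, SE 0.23), and 4 fell. These were the receptor ERBB3 (−1.46), the ligands NRG2 (−2.06) and NRG4 (−1.35) and the inhibitor LRIG1 (−1.75), and NRG2, NRG4 and LRIG1 span at least 100 kb.

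Inflammatory and interferon genes rose without a counterpart that fell. Of 25 tested genes of NF-κB and cytokines 12 rose and 0 fell (median 0.90), and of 25 interferon-stimulated genes 7 rose and 0 fell (median 0.68). NFKB2 and RELB, the subunits of the non-canonical pathway, rose by 1.96 and 1.60, and the inhibitors TNFAIP3 and NFKBIE by 2.89 and 1.82. The chemokine CCL20 and the cytokine CSF1 rose by 2.60 and 1.47. The cytokine TNF was called as well but stayed at 0.26 to 0.53 CPM in treated cells, and IL1A, with 0 to 0.03 CPM untreated, reached 0.22 to 0.37 CPM. ISG15, a ubiquitin-like modifier, rose from 2.36, 3.49 and 2.21 CPM to 25.4, 19.8 and 36.7 CPM (3.34, SE 0.27), and IRF7 from 2.46 to 3.49 CPM to 14.9 to 22.1 CPM (2.63). IRF1, IFI6 and IFIT3 rose by 2.20, 1.59 and 1.37. Treated library 3 was the highest for both ISG15 and IRF7.

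Metabolic and proteostatic stress programs did not rise together. Of 26 genes of the ATF4 response 4 rose (15.4%, against 11.6% of all genes) and 2 fell (7.69%, against 11.5%), with a median of −0.10. The 4 that rose were ATF3, SESN2, DDIT3 and PPP1R15A, of which ATF3 stands in the AP-1 list and SESN2 in the p53 list as well. Of the genes that supply amino acids, PHGDH, the entry enzyme of serine synthesis, fell from 55.8, 52.5 and 60.2 CPM to 20.3, 20.7 and 22.7 CPM (−1.40, SE 0.10), and SLC7A5 was lower by p alone (−0.94). DDIT4, an inhibitor of mTORC1, fell from 247 to 276 CPM to 106 to 110 CPM (−1.27). In the unfolded protein response 3 of 19 genes fell (15.8%, against 11.5% of all) and 0 rose. They were the sensor ATF6, at 77.9, 72.2 and 72.4 CPM untreated and 22.5, 25.2 and 20.2 CPM treated (−1.71, SE 0.13), the transcription factor XBP1 (−1.31) and the disulfide isomerase PDIA4 (−1.01). Of 26 NRF2 targets 9 fell and 0 rose (median −0.60). Of the 5 enzymes that supply NADPH, TKT went from 1610, 1677 and 1677 CPM to 568, 582 and 533 CPM (−1.56, SE 0.10), and ME1 and PGD fell by 1.42 and 1.36 on the log2 scale. The detoxifying reductases AKR1C2 and AKR1C3 and the heme oxygenase HMOX1 fell by 1.66, 1.28 and 1.05. Of 25 genes of sterol and lipid synthesis 6 fell and 0 rose: the regulator SREBF1 went from 273, 310 and 270 CPM to 106, 109 and 82.0 CPM (−1.52, SE 0.10), the desaturase SCD from 2236 to 2753 CPM to 630 to 953 CPM (−1.59), and ACACA, INSIG1 and MVK fell by 1.38, 1.22 and 1.12.

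Genes of replication and mitosis were lower, mostly by less than 2-fold. Of 42 genes of DNA replication and the G1/S transition 10 fell and 1 rose, while at the p without the size limit 29 were lower (69.0%, against 27.8% of all genes) and 5 higher (median −0.56). Of the licensing factors, which load the replicative helicase, all 10 were lower by p. MCM6 went from 180, 169 and 184 CPM to 49.6, 49.6 and 45.9 CPM (−1.88, SE 0.16), and MCM5, MCM3 and MCM7 fell by 1.69, 1.46 and 1.19. POLA1, the catalytic subunit of DNA polymerase α and a gene of 303 kb, fell from 65.1 to 68.7 CPM to 12.3 to 18.4 CPM (−2.11). The repressor E2F7 was the gene that rose, from 32.5, 33.1 and 31.5 CPM to 126, 122 and 133 CPM (1.97, SE 0.14). Of 34 genes of G2/M and mitosis 5 fell (14.7%, against 11.5% of all) and 0 rose, while 28 were lower at the p without the size limit (82.4%, median −0.66). PLK1, a kinase of mitotic entry (chromosome 16 of hg19, 23688977 to 23701688), went from 210, 227 and 230 CPM to 90.6, 89.2 and 96.8 CPM (−1.27, SE 0.10), and the checkpoint kinase BUB1B from 94.0 to 101 CPM to 37.6 to 42.8 CPM (−1.26). HMMR, PRC1 and KIF11 fell by 1.18, 1.06 and 1.02, whereas CDK1 was at 179 to 207 CPM untreated and 163 to 178 CPM treated (−0.17, adjusted p = 0.0797).

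Promoters of mitotic genes often hold the letters TTTGAA, the usual form of the cell cycle homology region, and the CCAAT box. Promoter windows of 250 bases before to 50 after the start were read from RefSeq (GRCh38.p14), where 28 of the 34 genes matched. TTTGAA was found on either strand in 18 of them (64.3%) and CCAAT in 22 (78.6%), against 15.4% and 35.7% of all 27305 promoters of this length. The 28 genes were listed for their role in mitosis, not for their promoters, and a match of letters is a description only. The AP-1 site TGANTCA was in 0 of the 28, in 1 of 19 promoters of the AP-1 and immediate early list and in 7.76% of all. The promoters of PLK1 and BUB1B, the 2 genes of the list that fell most, are shown in lower case on the plus strand with TTTGAA and CCAAT in capitals, at chr16:23678639-23678938 and chr15:40160819-40161118.
PLK1 promoter: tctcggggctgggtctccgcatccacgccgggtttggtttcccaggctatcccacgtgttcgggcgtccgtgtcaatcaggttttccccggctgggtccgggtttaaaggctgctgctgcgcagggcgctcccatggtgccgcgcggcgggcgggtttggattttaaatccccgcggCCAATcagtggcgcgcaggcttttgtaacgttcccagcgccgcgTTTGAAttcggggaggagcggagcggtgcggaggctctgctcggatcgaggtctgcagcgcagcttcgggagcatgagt
BUB1B promoter: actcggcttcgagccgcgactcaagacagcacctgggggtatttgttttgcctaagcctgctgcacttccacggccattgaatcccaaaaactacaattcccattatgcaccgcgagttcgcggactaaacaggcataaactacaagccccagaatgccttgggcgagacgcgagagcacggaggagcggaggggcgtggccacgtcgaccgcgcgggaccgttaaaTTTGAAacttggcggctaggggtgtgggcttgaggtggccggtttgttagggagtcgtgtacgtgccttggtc

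Most repair genes moved less than 2-fold. Of 29 genes of nucleotide excision repair 3 rose (10.3%, near the 11.6% of all genes) and 0 fell: the damage sensor XPC went from 56.6, 58.3 and 54.5 CPM to 195, 189 and 214 CPM (1.82, SE 0.07), DDB2 rose by 1.47 and ERCC6, the factor of transcription-coupled repair, by 1.01. DDB2 stands in the p53 list as well. Of 28 Fanconi and recombination genes 2 fell (7.14%, against 11.5% of all genes) and 0 rose. FANCC, a Fanconi core subunit of 219 kb, went from 27.2, 28.2 and 28.2 CPM to 5.39, 6.15 and 4.23 CPM (−2.40, SE 0.12). BRCA1 was lower by p alone (−0.81), and BRCA2 did not pass (0.14). Of 23 checkpoint genes only ATRIP, the partner of ATR, rose (1.23) and 0 fell. The kinase ATR was at 55.9 to 58.6 CPM untreated and 59.0 to 63.6 CPM treated and did not pass, while CHEK1 was lower by p (−0.88).

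Genes of signaling and adhesion moved in both directions. Of 31 tested genes of TGF-β and BMP signaling 3 rose (9.68%, against 11.6% of all genes) and 10 fell (32.3%, against 11.5%), with a median of −0.46. The ligand BMP6 went from 22.7, 20.2 and 20.9 CPM to 3.36, 3.06 and 1.98 CPM (−2.92, SE 0.45) and the receptor BMPR1B from 38.5 to 44.3 CPM to 6.32 to 10.2 CPM (−2.27). The receptors TGFBR2 and TGFBR3, the transducer SMAD2 and the targets ID1 and ID4 fell by 1.33, 1.73, 1.11, 1.64 and 2.17, whereas the ligand TGFB3 rose by 1.86. Of the 10 that fell 4 span at least 100 kb. Of 19 genes of the YAP and TEAD list 6 rose and 0 fell, 5 of them among its 8 targets (median of the targets 1.21), with CTGF and CYR61 at 1.39 each and AJUBA at 1.64. Of 21 tested genes of the epithelial and mesenchymal state 5 rose (23.8%, against 11.6% of all genes) and 3 fell (14.3%, against 11.5%). CDH1 (E-cadherin) went from 119, 129 and 91.1 CPM to 39.9, 50.2 and 32.1 CPM (−1.47, SE 0.18) and CDH2 (N-cadherin) fell by 1.59. The repressors of E-cadherin SNAI1 and SNAI2 rose, SNAI1 from 3.44 to 4.23 CPM to 13.7 to 22.8 CPM (2.28) and SNAI2 from 0.05 to 0.13 CPM to 1.05 to 2.32 CPM. The mesenchymal genes did not rise as a set. Of 8 tested 2 rose and 1 fell, 3 were lower by p, and the median was −0.11. Of 13 tested epithelial genes 3 rose and 2 fell (median −0.38). OVOL1 rose by 3.12 but held only 0.28 to 0.56 CPM in treated libraries. Of the epithelial splicing regulators, ESRP2 rose by 2.19 and ESRP1 fell by 1.32, and the call of ESRP1 was lost without untreated library 1 (−1.23) or 2 (−1.20) or treated library 3 (−1.12). Of 15 tested genes of Cisplatin transport 5 fell (33.3%, against 11.5% of all genes) and 2 rose (13.3%, against 11.6%). The exporters ABCC4, ABCC1, ATP7A and ABCC3 fell by 1.77, 1.40, 1.14 and 1.05 and the uptake carrier SLC22A3 by 2.01. Of the 5 that fell 4, all but ABCC3, span at least 100 kb. ABCC5 and SLC31A2 rose by 1.08 each. The copper transporter SLC31A1, which also imports Cisplatin, was at 64.5 to 67.2 CPM untreated and 56.8 to 58.0 CPM treated (−0.21).

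Core machineries held close to their level. None of 77 ribosomal protein genes, 72 genes of the respiratory chain and 31 of the proteasome passed the 2-fold limit (medians 0.12, −0.04 and 0.12). Of 36 genes of the activated spliceosome 1 fell, CWC27, a peptidyl-prolyl isomerase of 250 kb (−1.59, SE 0.13), while XAB2 and the helicases DHX38 and DHX15 passed by p alone (0.75, 0.99 and −0.88). hnRNP proteins, which coat pre-mRNAs, were lower by p in 17 of 22 (77.3%, against 27.8% of all genes), with a median of −0.47. HNRNPA2B1 fell from 1938, 1975 and 1977 CPM to 855, 907 and 868 CPM (−1.16, SE 0.08). Of 23 SR proteins and their kinases TRA2B fell, from 226, 237 and 241 CPM to 111, 123 and 103 CPM (−1.06, SE 0.09), and SRSF3 and SRSF1 were lower by p alone (−0.86 and −0.71). The kinase SRPK3 was called higher at 0.31 to 0.41 CPM, but this call was lost when reads of both strands were counted. In autophagy, 1 of 26 genes rose (3.85%, against 11.6% of all genes) and 2 fell (7.69%, against 11.5%). The 2 were ATG10 (−3.05) and ATG7 (−1.62), which span 305 and 285 kb. Among noncoding RNAs, MEG3, KCNQ1OT1 and the snoRNA host SNHG12 rose by 2.95, 2.52 and 1.10, and H19 fell from 14.6, 13.4 and 12.1 CPM to 5.65, 4.54 and 4.57 CPM (−1.44, SE 0.23).

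The lists not named so far held few calls, except polyamine metabolism and the markers of the line. Heat shock proteins rose in 1 of 16 (HSPA6, 2.93) and nonsense-mediated decay factors in 1 of 15 (SMG8, 1.11). Of 26 genes of glycolysis and the hypoxia response ADM and PFKFB4 rose by 1.12 and 1.41, and LDHA, which makes lactate, fell from 4745, 4269 and 4569 CPM to 1972, 1966 and 1742 CPM (−1.26). Translesion synthesis had POLH as its only rise and POLN as its only fall among 15 genes, and 0 of 3 tested metallothioneins passed. In polyamine metabolism 3 of 13 genes rose (23.1%, against 11.6% of all genes) and 1 fell (7.69%, against 11.5%). SAT1, the acetyltransferase that starts polyamine catabolism, went from 185, 165 and 166 CPM to 486, 457 and 596 CPM (1.58, SE 0.21), SAT2 and ARG2 rose by 1.09 and 1.39, and SMOX fell by 1.10, but the call of ARG2 was lost when reads of both strands were counted. Of 11 markers of the line itself 5 fell (45.5%, against 11.5% of all genes) and 1 rose (9.09%, against 11.6%). KRT18 fell from 5994, 6441 and 6339 CPM to 2226, 2353 and 2016 CPM (−1.51, SE 0.20) and ALDH1A1 by 1.30, while ALDH3A1 rose from 1084 to 1174 CPM to 2961 to 3315 CPM (1.48).

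**Figure D2:**
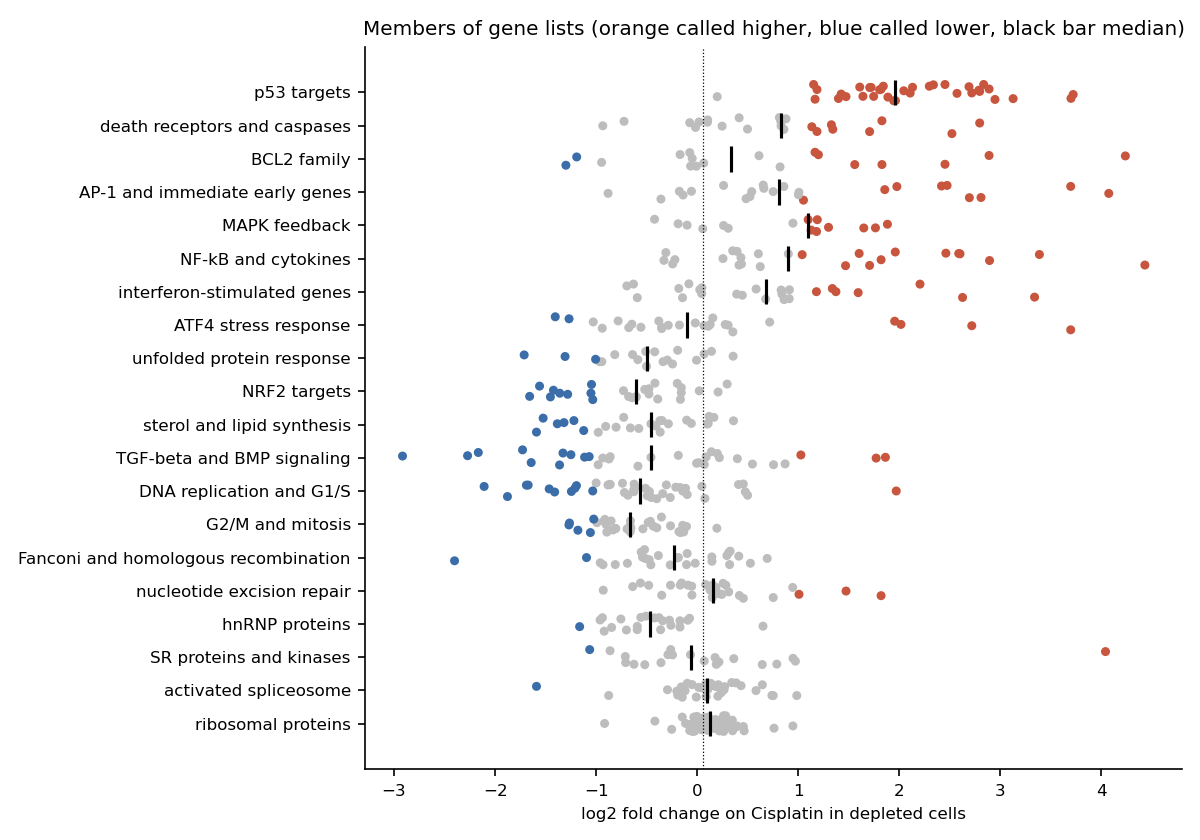
Log2 fold change upon Cisplatin treatment of every tested member of 20 gene lists in depleted cells; orange points were called higher, blue points lower and grey points neither, the black bar is the median of a list and the dotted line the median of all genes, 0.06. The p53 targets lie almost wholly above 1, while NRF2 targets, sterol synthesis, replication and mitosis have medians between −0.46 and −0.66.

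The direction of change went with the length of the gene. The span of 13487 tested genes was taken from the protein-coding annotation of hg19, and 1865 genes, mainly noncoding, had none there. Genes under 10 kb had a median log2 fold change of 0.31, those of 10 to 30 kb 0.26, those of 30 to 100 kb −0.03, those of 100 to 200 kb −0.49, those of 200 to 500 kb −1.48 and those of at least 500 kb −2.84. Of the 180 genes of at least 500 kb 137 fell (76.1%) and 5 rose, whereas of 2629 genes under 10 kb 55 fell (2.09%) and 518 rose (19.7%). Of the genes that fell 68.9% spanned at least 100 kb, against 4.78% of those that rose and 20.1% of all, and their median spans were 170, 14.4 and 32.8 kb. Spearman's rho between span and log2 fold change was −0.46 across genes, which share libraries and are not independent. The 298 genes with a single exon had a median of 0.37, and 68 of them rose and 13 fell. Control cells had medians of 0.14 under 10 kb, 0.16 at 10 to 30 kb, −1.16 at 200 to 500 kb and −2.73 at 500 kb or more. At 200 kb or more the median difference between the effects in depleted and control cells was −0.31, and 15 of these 1043 genes were called for a more negative and 5 for a more positive effect in depleted cells. Of the 1043 genes 19 rose. Among them were FBXW7, a substrate receptor of a ubiquitin ligase (215 kb), from a mean of 12.4 to 49.9 CPM (2.00, SE 0.12), the signaling protein PLCL2 from 4.70 to 15 CPM (1.68), the cytoskeletal linker DST from 77.2 to 156 CPM (1.02) and the transcription factor RUNX1, 1217 kb long, from 15.3 to 31.1 CPM (1.02).

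**Figure D3:**
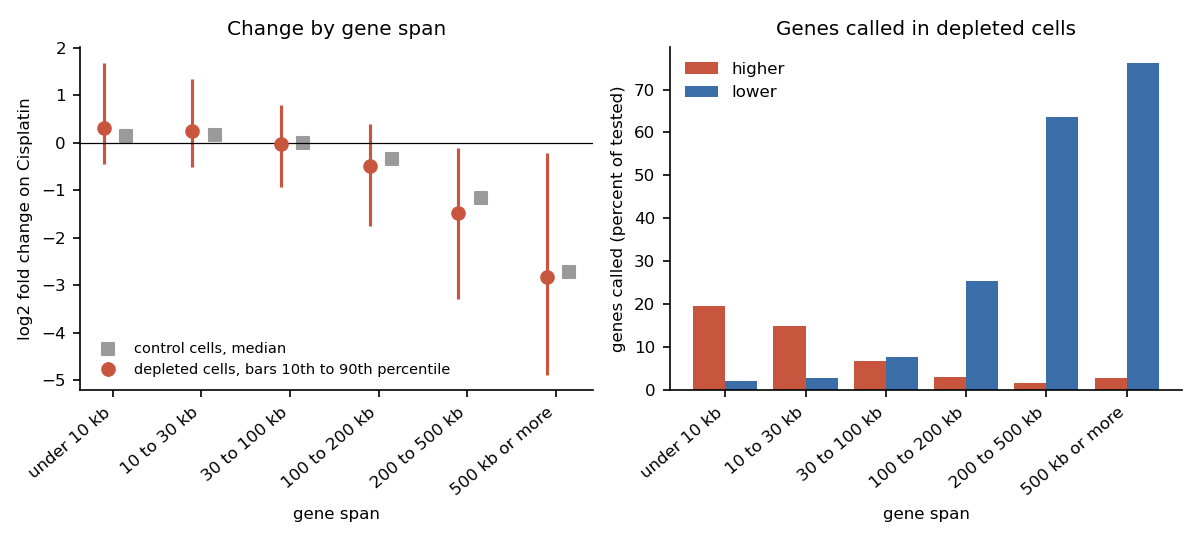
Left, median log2 fold change upon Cisplatin treatment by gene span, for depleted cells (orange, with bars from the 10th to the 90th percentile of genes) and control cells (grey squares). Right, percent of tested genes called higher or lower in depleted cells in the same bins, which goes from 19.7% higher and 2.09% lower under 10 kb to 2.78% higher and 76.1% lower at 500 kb or more.

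Where the response of depleted cells differed from that of control cells was asked with the interaction of the model. It was called in 196 genes (1.28%), with the effect more positive in depleted cells in 118 and more negative in 78. In 72 the effects had the same sign and the depleted one was larger, in 49 the same sign and the depleted one was smaller, and in 75 opposite signs. The count rose to 522 without the control libraries numbered 2 and ranged from 75 to 420 with each library left out in turn, lowest without untreated depleted library 1 and highest without untreated control library 2. The excess of positive differences was not stable, since negative ones were more numerous in 7 of the 12 cases with 1 library left out. There were 183 positive and 237 negative without untreated control library 2, 53 and 71 without treated control library 1, 35 and 48 without treated depleted library 3, and 258 and 264 without both control libraries numbered 2. With the replicate block there were 516, of which 319 were positive and 197 negative. GRHL3, a transcription factor of epithelial differentiation, showed the most negative difference among the named genes. GRHL3 was at 14.6, 13.1 and 12.6 CPM in untreated and 23.4, 23.5 and 22.2 CPM in treated depleted cells, against 0.55 to 2.11 and 24.3 to 38.5 CPM in control cells (difference of log2 fold changes −4.00, adjusted p = 0.0046). The treated levels of both cells were thus near each other, and the untreated ones were not. TINCR, an RNA of epidermal differentiation, and CRIP2, a LIM protein, had differences of −1.96 and −1.76.

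Of the 26 genes of the ATF4 response 4 were called for a more negative effect in depleted cells (15.4%, against 0.508% of all genes) and 0 for a more positive one. They were NUPR1, DDIT3, TRIB3 and ALDH1L2, whereas ATF3 and SESN2 had log2 fold changes of 3.70 and 2.72 in depleted and 4.01 and 2.78 in control cells, differences that did not pass (adjusted p = 0.69 and 0.922). NUPR1, a stress-induced chromatin protein, was at 4.87, 4.31 and 5.26 CPM untreated and 8.04, 8.38 and 7.26 CPM treated, while control cells went from 11.8 to 13.8 CPM to 71.5 to 75.7 CPM (difference −1.80, SE 0.14, adjusted p = 0.000258). DDIT3, which encodes CHOP, went from 8.36, 7.80 and 8.33 CPM to 40.1, 35.5 and 23.4 CPM, against 118 to 205 CPM in treated control cells (difference −1.81). TRIB3 and ALDH1L2, targets of ATF4, were lower after treatment of depleted cells (−0.78 and −0.68) and had log2 fold changes of 0.59 and 0.59 in control cells, with differences of −1.37 and −1.26. CDKN1A, MDM2 and SPATA18 of the p53 list rose in both but less in depleted cells, with differences of −1.25, −1.11 and −1.13, and so did ICAM1 (−2.02) at levels of 2.69 to 3.23 CPM in treated depleted cells. In the opposite direction, BCL2L11 went from 12.3, 12.8 and 11.4 CPM to 27.1, 26.0 and 30.8 CPM and had a log2 fold change of −0.05 in control cells (difference 1.25, adjusted p = 0.00639). TNFRSF10D, SNAI1, HOXB6, PHLDB1, GPRC5B and the helicase PIF1 also had differences of 1.30 to 1.61 towards a more positive effect in depleted cells, and HOXB6 went from 7.49, 9.29 and 6.86 CPM to 20.6, 18 and 23.8 CPM. The call of GPRC5B was lost when any of 9 libraries was left out, all 6 depleted ones among them (differences of 1.45 to 1.66).

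Histone genes of replication moved apart between the cell populations. Of 33 tested 7 rose and 1 fell in depleted cells (median 0.59), while 0 rose and 21 fell in control cells (median −1.62), and the interaction was called for a more positive effect in 11, against 0.769% of all genes. HIST1H3E was at 0.98, 0.89 and 0.74 CPM untreated and 2.20, 2.35 and 2.43 CPM treated (1.41, SE 0.23), and HIST1H2BK, at 63.4 to 64.7 and 51.1 to 71.6 CPM, had a log2 fold change of −0.12 in depleted and −1.55 in control cells. The genes are near-identical copies that can share reads, so single members are uncertain. The libraries were made with an mRNA kit, and histone mRNAs of this kind normally lack a poly(A) tail, whose part in the levels was not tested. The calls of HIST1H3B and HIST1H2AM were each lost without untreated library 1, without untreated library 2 or without treated library 3, at log2 fold changes of 0.65 to 1.27, and that of HIST1H3B without treated library 1 as well (1.30).

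Intronic reads rose relative to exonic reads in most genes of depleted cells. They were the deposited reads within the span of a gene minus those within its exons, and 9557 genes with at least 10 of each in every library were tested. The ratio of intronic to exonic reads was higher upon Cisplatin treatment in 6661 genes (69.7%) and lower in 62 (0.649%) at an adjusted p under 0.05, with a median log2 change of 0.74. In control cells it was higher in 1772 (18.5%) and lower in 119 (1.25%), with a median of 0.28. The change in depleted cells was called more positive than that in control cells in 367 genes (3.84%) and more negative in 1 (0.0105%). Totals were summed over the 18462 genes whose intronic count was below 0 in no library. Intronic reads were then 6.52%, 7.10% and 6.10% of exonic reads in the untreated depleted libraries and 11.02%, 11.31% and 11.47% in the treated ones. The groups did not overlap, at 6.57 ± 0.50% and 11.3 ± 0.23% (SD, n = 3), and the two-sided exact permutation p was 0.1, the smallest that 3 against 3 libraries allow. Control cells held 4.86 ± 0.28% untreated and 6.12 ± 1.45% treated (exact permutation p = 0.3, n = 3). With the 1086 genes below 0 included, depleted libraries held 3.03% to 4.03% untreated and 7.51% to 7.85% treated. Control libraries then held 1.58% to 2.20% untreated and 1.73% to 4.49% treated. Read pairs in no gene moved with the intronic ratio, from 6.53 ± 0.40% to 10.6 ± 0.29% of uniquely mapped pairs in depleted cells (exact permutation p = 0.1, n = 3). The part of these pairs in the intronic ratio was not tested.

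In the longest genes the ratio rose through a loss of exonic reads. Under 10 kb the median log2 change was 0.72 for intronic and 0.18 for exonic reads in CPM, whereas at 500 kb or more it was 0.14 for intronic and −2.78 for exonic reads. Thus intronic reads were not lower at the median in any bin of span. The ratio was higher in 49.5% of genes under 10 kb, in 72.8% of those of 30 to 100 kb and in 91.4% of those of at least 500 kb. SHANK2 had intronic reads equal to 30.2%, 32.8% and 31.7% of its exonic reads in untreated and 1193%, 1354% and 994% in treated depleted cells (log2 change 5.20, SE 0.24, adjusted p = 4.2e-12). Its intronic reads were at 8.48 and 11.2 CPM and its exonic reads at 26.9 and 0.97 CPM in the means of the untreated and treated libraries. PRKCA, the kinase PKCα, kept 7.08 and 7.28 intronic reads in CPM while its exonic reads went from 137 to 8.34 CPM (4.07, SE 0.20). AGAP1, MAD1L1 and RABGAP1L, of 638, 417 and 836 kb, followed with 4.26, 4.09 and 3.95. For AGAP1, MAD1L1 and PRKCA the change exceeded that in control cells by 1.33, 1.06 and 1.36 (adjusted p = 0.0244, 0.0388 and 0.0154). Among the 62 genes with a lower ratio, CEACAM19, GPR135, RP11-159D12.5 and KCNJ14 gained exonic reads, such as CEACAM19 from 3.58 to 10.2 CPM, and COG8 lost intronic reads from 26.2 to 13.7 CPM.

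**Figure D4:**
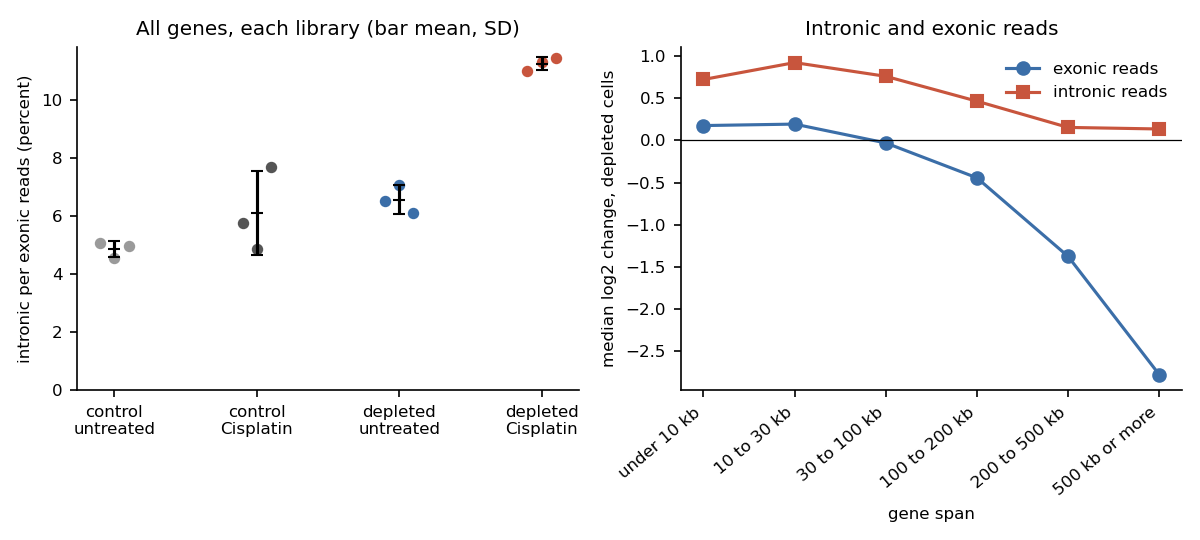
Left, reads in introns as percent of reads in exons in each of the 12 libraries, with mean and SD per condition. They are summed over the 18462 genes with no intronic count below 0, although the panel title reads all genes. The treated depleted libraries lie at 11.02% to 11.47%, above the other 9. Right, median log2 change of intronic (orange) and exonic (blue) reads in CPM upon Cisplatin treatment of depleted cells by gene span, where the exonic line drops to −2.78 and the intronic line stays above 0.

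Splicing events were called in a small share of those tested. An inclusion level is the share, corrected for length, of reads from the form with the exon or intron. It was called where the adjusted p of inclusion against skipping reads was under 0.05 and the group means lay at least 20 points apart, and the libraries of the splicing tables are unnamed and called a, b and c. Of 60616 skipped exon events 159 were called (0.262%), 109 with higher and 50 with lower inclusion. Of 3486 retained introns 39 were called (1.12%), 22 higher and 17 lower, although at the p alone 464 were higher and 82 lower. There were 18 of 3175 alternative 5′ sites (0.567%), 8 of 4566 alternative 3′ sites (0.175%) and 19 of 14054 mutually exclusive exons (0.135%). Counted once per exon, the 97 exons with higher inclusion had a median level of 22.9% in untreated cells and the 49 with lower inclusion one of 83.7%, against 99.1% of all exons tested. Coding sequence overlapped 59.8% of the former and 79.6% of the latter, against 90.7% of all. A multiple of 3 bases long were 36.1% and 34.7%, against 40.1% of all.

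Of the exons with large shifts, 3 whose changes rest on many reads are given on the transcript strand of hg19, with the exon in capitals, the 20 bases before it and the 8 after it in lower case. They are PKM at chr15:72513501-72513645 on the minus strand, NOP56 at chr20:2637999-2638142 on the plus strand and INCENP at chr11:61908952-61908991 on the plus strand.
PKM: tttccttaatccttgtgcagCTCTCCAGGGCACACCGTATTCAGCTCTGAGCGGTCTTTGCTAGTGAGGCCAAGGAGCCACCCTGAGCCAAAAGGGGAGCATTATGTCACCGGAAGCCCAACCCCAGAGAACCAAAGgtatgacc
NOP56: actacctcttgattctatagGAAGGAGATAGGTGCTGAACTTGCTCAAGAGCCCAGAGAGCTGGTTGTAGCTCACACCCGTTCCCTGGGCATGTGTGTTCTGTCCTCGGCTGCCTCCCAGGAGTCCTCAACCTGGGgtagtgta
INCENP: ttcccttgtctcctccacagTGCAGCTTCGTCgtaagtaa

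An exon of NOP56, a core protein of box C/D snoRNPs, lost the most inclusion. The exon of 116 bases overlaps coding sequence and was included at 96.0%, 97.8% and 98.7% in untreated and 34.0%, 37.2% and 26.7% in treated depleted cells (−64.9 points, adjusted p = 4.61e-35). Control cells had means of 97.8% and 85.0%, and the difference of the effects, −52.0 points, did not pass (adjusted p = 0.817). The exon of PKM, the muscle-type pyruvate kinase gene, is 117 bases long and went from 31.8%, 29.9% and 31.1% to 80.0%, 83.2% and 82.5% (51.0 points, adjusted p = 3.58e-12), and in control cells the means were 35.0% and 85.7%. INCENP, a subunit of the chromosomal passenger complex, has an exon of 12 bases, 4 codons long, whose inclusion fell from 61.1%, 54.8% and 66.4% to 18%, 27.1% and 18.6% (adjusted p = 1.05e-06). An exon of the apoptosis inhibitor TMBIM6, of 159 bases, went from 89.7%, 94.8% and 100% to 45.4%, 54.2% and 55.9%, and exons of SAT2 and FAM126A fell by 41.1 and 36.8 points. Those of the ankyrin gene ANK1, the centriole gene STIL, ARHGAP11B and LINC00511 rose by 51.8, 46.3, 43.6 and 42.9 points. STIL rested on 1 library for part of its size, with 43.5%, 44.4% and 91.1% in the treated libraries, and on as few as 30 reads. The exons of ANK1, ARHGAP11B and LINC00511 held as few as 28, 38 and 27 reads in a library. Skipping reads of ANK1 numbered 6, 7 and 8 untreated and 0, 3 and 2 treated. Treated levels were 65.5%, 66.9% and 89.1% for ARHGAP11B and 68.1%, 71.4% and 42.8% for LINC00511.

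The SAT1 exon was the single skipped exon event called for the difference between depleted and control cells, of 40331 tested in both (0.00248%). This exon of 110 bases lies on chromosome X from 23802411 to 23802520. Its inclusion was 56.5%, 57.2% and 50.8% in untreated and 26.1%, 28.5% and 13.9% in treated depleted cells, whereas control cells held 44.1% to 55.6% untreated and 44.2% to 52.3% treated. The effect in depleted cells was lower by 27.2 points (adjusted p = 0.00112), and the event was not called without treated depleted library c, the one with the lowest level. In 9 further events the difference passed the p but was under 20 points. Among them was a second exon of NOP56, of 133 bases (chromosome 20, 2634822 to 2634954), with the largest of these differences and the smallest adjusted p. It went from 8.35%, 5.66% and 6.56% to 21%, 18% and 30.9% in depleted cells and stayed at 2.5% to 5.86% in all control libraries (17 points, adjusted p = 0.00046). An exon of SRSF3, an SR protein, had a difference of −7.82 points and went from 3.50% to 4.86% to 10.6% to 13.8% in depleted cells, and from 1.41% to 1.97% to 11.5% to 27.0% in control cells.

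**Figure D5:**
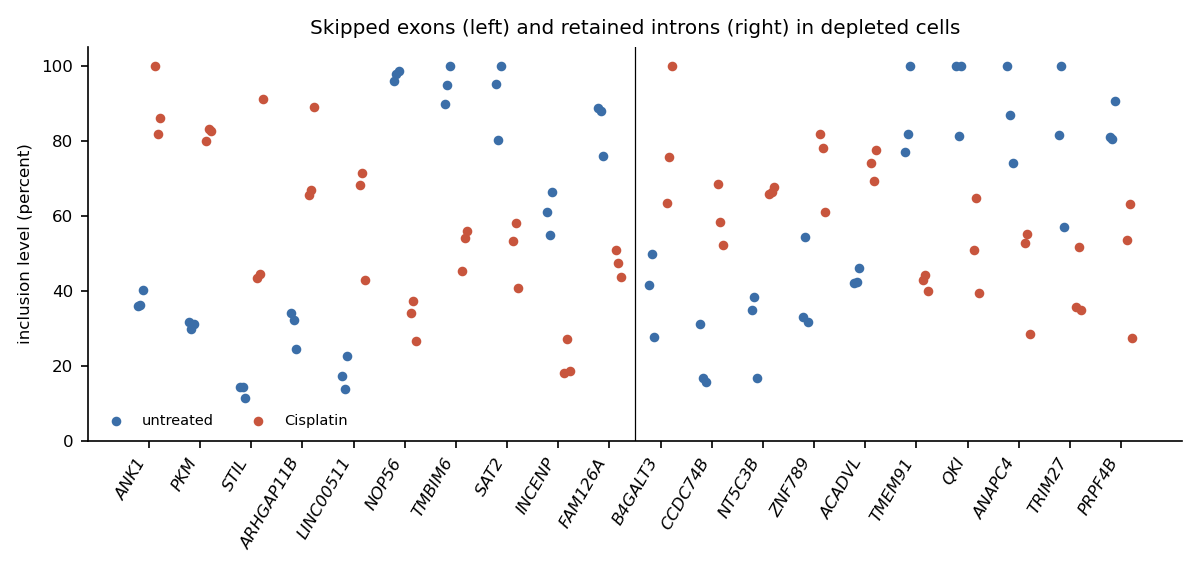
Inclusion level in percent of the 10 skipped exons (left) and 10 retained introns (right) with the largest changes in depleted cells; each point is 1 library, blue untreated and orange Cisplatin-treated. The 2 groups of points do not overlap in any of the 20 events, which was a condition for their choice.

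Retained introns showed shifts in both directions in genes of diverse function. ACADVL, the very long chain acyl-CoA dehydrogenase, retained an intron of 406 bases at 42.1%, 42.5% and 46.2% untreated and 74.2%, 69.2% and 77.5% treated (30.1 points, adjusted p = 2.44e-05). NT5C3B, a nucleotidase, retained one of 176 bases at 34.9%, 38.2% and 16.6% and then 65.9%, 66.2% and 67.6% (36.7 points, adjusted p = 0.00569). B4GALT3, CCDC74B and ZNF789 rose by 40.1, 38.5 and 34.0 points, on few spliced reads. These numbered 10, 9 and 15 untreated and 4, 2 and 0 treated for B4GALT3. They were 4, 9 and 5 and then 1, 2 and 2 for CCDC74B, and 5, 3 and 6 and then 2, 2 and 4 for ZNF789. Lower levels were found for introns of TMEM91, QKI, ANAPC4, TRIM27 and PRPF4B. Spliced reads of TMEM91, ANAPC4 and TRIM27 numbered at most 3 in any untreated library. The intron of QKI, an RNA-binding protein that regulates splicing, went from 100%, 81.2% and 100% to 50.9%, 64.8% and 39.4% (−42.0 points, adjusted p = 0.0431), where spliced reads numbered 0, 1 and 0 untreated and 3, 3 and 5 treated. That of the spliceosomal kinase PRPF4B went from 81.0%, 80.6% and 90.5% to 53.6%, 63.2% and 27.5%. None of 3289 introns was called for a difference from control cells (0%), while 230 had an unadjusted p under 0.05 in edgeR's test.

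The ends of 2 introns of each direction are shown because splice sites define what is retained, with the GT and AG at the intron borders in capitals, from hg19. They are ACADVL at chr17:7123517-7123536 and chr17:7123893-7123922 on the plus strand, NT5C3B at chr17:39992091-39992110 and chr17:39991935-39991964 on the minus strand, QKI at chr6:163984752-163984771 and chr6:163985669-163985698 on the plus strand and PRPF4B at chr6:4061935-4061954 and chr6:4062417-4062446 on the plus strand.
ACADVL start: GTaagtcaccgcagccttgg
ACADVL end: gagccctgaaatttgcctctctctgcccAG
NT5C3B start: GTacctctggggcgtgcggg
NT5C3B end: ggttcgcctgtcctaaaacccaaatttcAG
QKI start: GTaagttcttctccccatgg
QKI end: aaagacattactgatgccttttttttatAG
PRPF4B start: GTaattgcttctttaccttt
PRPF4B end: tctcacttttccttttgatggtgcggaaAG
All 4 introns begin with GT and end with AG, as did 98.8% and 99.9% of the 3486 tested. Median length was 668.5 bases for the 22 introns that rose and 793 bases for the 17 that fell, against 260 for all tested.

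Alternative splice sites and mutually exclusive exons added 45 events. An alternative 3′ site of VPS28, an ESCRT-I subunit, gained inclusion from 9.85%, 10.8% and 11.6% to 43.1%, 35.6% and 43.3% (29.9 points, adjusted p = 1.42e-28). NABP1, a single-stranded DNA binding protein of the damage response, lost inclusion at an alternative 5′ site from 93.7%, 95.2% and 70.2% to 35.3%, 45.3% and 42.9% (−45.2 points, adjusted p = 1.08e-07). CLASRP, an SR-related protein, gained 29.8 points at a site 4 bases from its alternative, and IRF3, a factor of interferon induction, gained 35.5 points at a 3′ site 16 bases away. Of the mutually exclusive exons, SEPT2 shifted from 76.5%, 75.6% and 86.6% to 45.8%, 34.7% and 28.2% for its upstream exon, and TANGO2 rose by 30.5 points. Other named events, in ARIH2, ZNHIT1, C12orf29, FAM160A2, C1orf63, DCAF13, C9orf3, RAP1B, LAMA3, RP1-130H16.18 and again ANK1 and TRIM27, changed by 22.6 to 49.0 points in either direction.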

How the data were processed

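Stranded mRNA libraries of the 12 cultures were analysed as deposited. The authors removed rRNA, tRNA and mitochondrial reads, aligned the rest to hg19 with STAR 2.5.2b and deposited raw counts of read pairs per gene, of which the column on the strand of the gene was used here. The deposited HTSeq counts of reads within genes and within exons use protein-coding genes of Gencode, and intronic reads were their difference. The deposited rMATS tables give inclusion and skipping reads of 3 unnamed libraries per condition, and the FDR there, a p-value that the authors adjusted, served only as an alternative. The authors' other comparison columns were not used.

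Expression was tested with edgeR 4.0.16 (R 4.3.3) on all 12 libraries with 1 mean per condition, TMM scaling, filterByExpr and Benjamini-Hochberg adjustment, at an adjusted p under 0.05 and at least 2-fold. SE is the log2 fold change over the root of the quasi-likelihood F. Splicing events for which no library had fewer than 10 reads, and intronic against exonic reads of genes with at least 10 of each, were tested in the same way with a term per library. Single totals were compared by a two-sided exact permutation test. The named genes were the 10 largest rises and falls of at least 10 CPM whose libraries do not overlap, the 2 largest of each direction per list with the defining genes of a list, the 5 largest differences from control cells in each direction, and the largest events and intronic changes. Genes of 200 kb or more that rose (FBXW7, PLCL2, DST and RUNX1) and the exons of SRSF3 and NOP56 given for their differences were chosen after their values had been seen. Some genes and sequences are not reported here. The comparisons, gene lists and members were chosen with earlier results of these data known. On simulated data 189 of 200 changed genes were recovered for Cisplatin in depleted cells (15352 genes), 174 for the difference from control cells, 145 for the intronic ratio (9557 genes) and 85 for skipped exons (60616 events).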

Additional observations from a re-analysis of the deposited data

Results flagged for a closer look

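The results here differed between depleted and control cells in the test of the difference itself, given as the log2 fold change in depleted minus that in control cells with edgeR's adjusted p between 0.000258 and 0.0448 for the expression of genes. More negative in depleted cells were GRHL3 (−4.00), ICAM1 (−2.02), TINCR (−1.96), DDIT3 (−1.81), NUPR1 (−1.80), CRIP2 (−1.76), H19 (−1.48), CAMK1D (−1.42), TRIB3 (−1.37), ALDH1L2 (−1.26), CDKN1A (−1.25), SPATA18 (−1.13) and MDM2 (−1.11). More positive were GPC6 (2.56), PIF1 (1.61), GPRC5B (1.61), PHLDB1 (1.51), HOXB6 (1.47), SNAI1 (1.38), TNFRSF10D (1.30), BCL2L11 (1.25) and ID2 (1.06).

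Of the 118 genes with a more positive effect in depleted cells 11 (9.32%) were replication-dependent histone genes: HIST1H3A (4.29), HIST1H3B (3.23), HIST1H2AM (2.85), HIST1H3H (2.29), HIST1H2BC (1.97), HIST1H4H (1.85), HIST1H3E (1.77), HIST1H2AC (1.54), HIST1H2BD (1.52), HIST1H2BK (1.42) and HIST1H1C (1.30). Near-identical copies can share reads, and the part of this in the values was not tested.

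The intronic to exonic ratio rose more in depleted cells, on the log2 scale, for PRKCA (1.36), AGAP1 (1.33) and MAD1L1 (1.06). The inclusion of the SAT1 exon was lower by 27.2 points beyond the change in control cells (difference −27.2 points).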

How the results depend on the processing

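The genes called for Cisplatin in depleted cells numbered 3229 to 3657 with each library left out, 3587 with DESeq2 and 3691 with the replicate block. The difference from control cells gave 196 genes, 516 with the replicate block, 522 without both control libraries numbered 2 (chosen after seeing the data) and 75 to 420 with each library left out. Same-numbered libraries had correlations of deviations of 0.41, −0.06 and 0.30 in depleted and 0.63, 0.73 and 0.48 in control cells. The numbers were not taken as pairs in depleted cells. In control cells libraries 1 and 3 of unlike number also had correlations of 0.59 and 0.53, and those of number 2 with 1 or 3 had −0.69 to −0.58. These values set both control libraries numbered 2 apart and do not show that 1 and 3 are paired. The control numbers may still be pairs, which bears on the difference. The median of genes of at least 200 kb was −1.43 (log2) with at least 10 counts in every library. With inclusion levels at least 0.1 apart, 393 skipped exons, 128 retained introns, 45 alternative 5′ sites, 34 alternative 3′ sites and 91 mutually exclusive exons were called, and 3 skipped exons for the difference from control cells. With the authors' rMATS FDR there were 348 skipped exons, 59 retained introns, 34 alternative 5′ sites and 17 alternative 3′ sites. Leaving out each library gave 87 to 139 skipped exons, 0 to 2 for their difference from control cells, 11 to 19 alternative 5′ sites, 5 to 10 alternative 3′ sites and 6 to 31 mutually exclusive exons. For the intronic ratio 6723 genes were called, 7299 with the replicate block and 4347 with at least 50 intronic and exonic reads. SRPK3 turned to −0.12 (log2) when both strands were counted. ID2 ranged from −0.031 without treated library 3 to 0.32. The causes were not tested. Splicing events could not be paired, since their tables do not name the libraries.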
